A study of Mus musculus with 6 samples.

Results

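The uterus of immature control mice was compared with their liver, to describe which genes set the organ apart in its muscle, stroma, epithelium and patterning factors. The comparison used 2 of the 6 arrays of the series, chosen by their labels as the uterus and the liver of control mice, with 1 array a side. Of the 55681 probes other than controls, 40218 were well above background on at least 1 of these 2 arrays and were kept. Through their accessions they gave 16620 of the 20284 genes that could be named on the array. The study exposed immature female CD-1 mice, an outbred stock, to BHPF, a fluorene bisphenol used in place of bisphenol A, and profiled uterus, ovary and liver on one-colour Agilent arrays. The control mice received the peanut oil vehicle intragastrically each day for 3 days, and were 24 days old by the labels. RNA of 3 mice was pooled for each tissue, and each pool was hybridised to 1 array. The uterus and liver of mice given BHPF at 50 mg/kg in the same oil served as a check, and the control ovary as a further comparison.

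With 1 array a group there was no replicate, so no test was made, no p value is given and the spread between animals is unknown. Differences are described by size alone, and a gene was counted as higher in an organ when it differed by at least 2-fold. Because the tissues were profiled in bulk, fewer cells of a type and less RNA per cell cannot be told apart. All arrays shared 1 slide, with uterus and liver in different columns of it, so position and tissue cannot be told apart. In the authors' table of processed values the headings of both uterus columns disagree with the scanner files, the column headed control holding the values of the array labelled BHPF and the reverse (100% of 38802 probes within 0.001 on the log2 scale). The scanner files are used here under the labels with which they came. Which of these labellings is right cannot be settled from the files, and the other one would exchange every control and BHPF uterus value given here. The study reported the small proline-rich genes *Sprr2a2*, *Sprr2b*, *Sprr2d*, *Sprr2f* and *Sprr2g* as lower in uterus with BHPF. That is their direction under the labels used here. It also reported lower *sprr2a* and *sprr2b* by quantitative PCR in uteri of mice dosed for longer. The level of a gene is its log2 intensity minus the 75th percentile of the array, so a level of 0 lies at that percentile, and a gene with several probes is given by their mean. Levels are not compared between genes, since probes differ in brightness. Where a probe was not well above background on 1 array, its own level there is given. The fold is then a bound, written as at least so many fold. It is taken against the higher of that level and the faintest level well above background on that array. That faintest level was −5.80 in uterus and −5.62 in liver. For scale, the SD that scatter between repeated spots gives a log2 ratio was 0.15, which covers neither animals nor RNA preparation.

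As background, the uterus forms from the Müllerian ducts, a pair of epithelial tubes surrounded by mesenchyme. The epithelium gives rise to the lining and the glands, and the mesenchyme to the endometrial stroma and to the smooth muscle of the myometrium. Hox genes expressed in order along the duct, together with Wnt signals passed between epithelium and mesenchyme, set where oviduct, uterus and cervix form. Oestrogen and progesterone act through nuclear receptors in all of these layers. The liver is built mainly of hepatocytes, which secrete most plasma proteins and carry out urea synthesis, gluconeogenesis and bile acid synthesis, beside sinusoidal endothelium, Kupffer cells and stellate cells. The mice were examined before puberty, when the uterus is thin and its glands are still few.

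Across all genes the organs differed widely and in both directions. Of the 16620 genes, 3761 (22.6%) were at least 2-fold higher in uterus and 3317 (20.0%) at least 2-fold higher in liver. The counts of each list below are to be read beside these shares. The median gene differed by −0.02 on the log2 scale of uterus minus liver, with quartiles of −0.79 and 0.87. Moderate differences were more often toward the uterus and extreme ones toward the liver. At 4-fold or more, 1943 genes were higher in uterus and 1472 in liver, at 16-fold 542 and 616, and at 64-fold 111 and 345. At 256-fold there remained 10 genes on the uterine side and 193 on the hepatic side. This split depended on how the arrays were scaled. Of the genes that differed by 2-fold, 53.1% were higher in uterus, against 29.5% when the 50th percentile was subtracted and 67.0% when the 75th percentile was taken over the probes detected by both arrays. These scalings moved the median of all genes by −0.57 and by 0.32. Genes with a difference of that size or smaller have no settled direction.

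**Figure D1:**
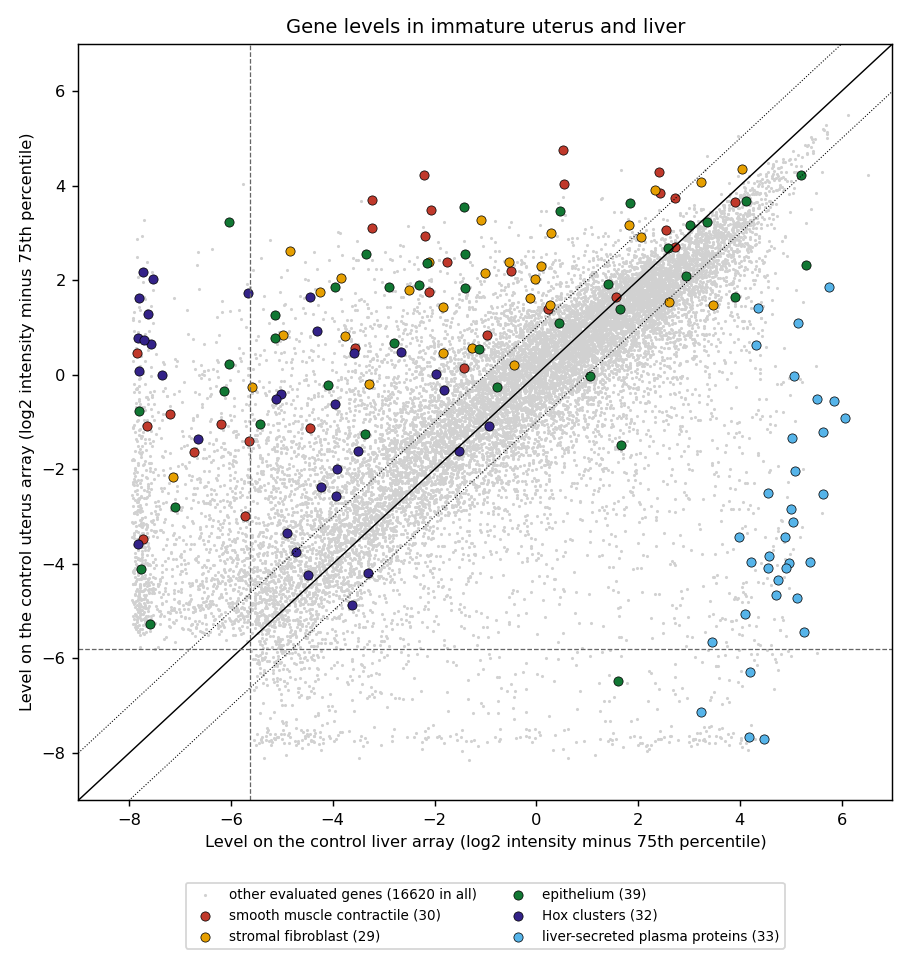
Level of each evaluated gene on the control liver array (x axis) and on the control uterus array (y axis), both as log2 intensity minus the 75th percentile of the array, 1 point a gene, with dotted lines at 2-fold and dashed lines at the faintest probe well above background. Liver-secreted genes lie in the lower right corner, while smooth muscle and Hox genes lie above the diagonal, many of them at a liver level near background.

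The arrays of the mice given BHPF share no array with the control pair. In that pair 3620 of 16211 genes (22.3%) were at least 2-fold higher in uterus and 3464 (21.4%) in liver. Of the 15982 genes evaluated in both pairs, 3098 were higher in uterus in both, which is 84.7% of those called in the control pair and 86.0% of those called in the BHPF pair. The liver side shared 2808 genes, or 86.6% and 82.4%. Opposite calls were made for 8 genes on the uterine side of the control pair and for 6 on its hepatic side. The BHPF uterus array carried more signal of liver genes than the control uterus, as described with those genes, so its ratios for them are smaller.

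Smooth muscle contractile genes were higher in uterus as a group. Of the 30 genes of the list, all evaluated, 26 were at least 2-fold higher in uterus and none in liver, with a median difference of 3.62 beside −0.02 for all genes. In the BHPF pair the count was 25 and the median 3.23. On the liver array 7 of the 30 were not well above background. The promoters of 3 of these genes hold a CArG box, the site bound by serum response factor, which with its partner myocardin drives many smooth muscle genes. A pair of them is shown to place the site. They are RefSeq sequences of GRCm38.p6, read 5′ to 3′ on the strand of the gene from 250 bases before to 50 bases after the start of the transcript, with the CArG box in capitals.
Myl9: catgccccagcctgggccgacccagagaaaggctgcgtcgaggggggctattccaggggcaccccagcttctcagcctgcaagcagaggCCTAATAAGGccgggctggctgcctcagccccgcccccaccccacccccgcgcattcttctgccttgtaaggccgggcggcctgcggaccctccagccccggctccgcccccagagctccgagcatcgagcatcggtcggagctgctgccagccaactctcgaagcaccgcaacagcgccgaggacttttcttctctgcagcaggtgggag
Ldb3: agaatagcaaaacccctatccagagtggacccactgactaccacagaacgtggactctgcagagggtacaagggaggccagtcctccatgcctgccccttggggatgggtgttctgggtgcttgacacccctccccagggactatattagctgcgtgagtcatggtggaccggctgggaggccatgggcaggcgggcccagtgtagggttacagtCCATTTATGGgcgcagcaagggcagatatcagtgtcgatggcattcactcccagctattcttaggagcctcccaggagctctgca
The box begins 161 bases before the start in *Myl9* and 35 bases before it in this promoter of *Ldb3*. The third gene, *Myl6*, has it 50 bases before the start. A promoter was in the table for 25 of the 30 genes, so 12% held the site, against 1.81% of all 27025 genes. A match is a description of the letters in this window and no evidence of binding.

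*Myh11*, the smooth muscle myosin heavy chain, had a level of 3.70 in uterus and −3.23 in liver, a difference of 123-fold. *Cnn1*, which encodes the actin-binding protein calponin, stood at 4.23 and −2.21, or 87.2-fold. *Actg2*, the enteric type of smooth muscle actin, stood at 3.48 and −2.07, or 47.0-fold. All of these lay above the 75th percentile in uterus and below it in liver. *Acta2*, the vascular type of smooth muscle actin, was 18.9-fold higher in uterus, with levels of 4.75 and 0.52. *Des*, the intermediate filament desmin, was 34.8-fold higher, at 2.94 and −2.18. Desmin also differed from the ovary, where its level was −1.36. *Pdlim3*, a cytoskeletal protein of muscle, was 80.1-fold higher in uterus, and *Kcnmb1*, the beta subunit of the large calcium-activated potassium channel, at least 67.5-fold. *Mylk*, the kinase that starts contraction by phosphorylating the myosin light chain, had a uterine level of −1.41 and was at least 18.5-fold higher. *Pln*, the inhibitor of the sarcoplasmic calcium pump, was at least 27.8-fold higher, and *Ldb3*, a Z-line protein, at least 23.9-fold.

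Other members of the list differed less. The myosin regulatory light chain *Myl9* had levels of 4.29 and 2.41, a difference of 3.68-fold, and the actin-binding *Tagln* levels of 3.85 and 2.42, or 2.70-fold. Among the 4 genes within 2-fold were *Csrp1* at 0.51, *Cald1* at 0.09 and *Myl6* at −0.23 on the log2 scale of uterus minus liver. The signs of these 3 changed with the scaling. *Myl6*, whose promoter holds the CArG box, was thus within 2-fold. Against the control ovary, which shares its uterus array with the liver comparison, 15 of the 30 genes were at least 2-fold higher in uterus and 1 in ovary, with a median of 0.99. For all genes of that comparison the shares were 13.6% and 11.0% of 17159.

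Regulators of smooth muscle and receptors for contraction lay on both sides, more of them on that of the uterus. Of the 24 listed, 20 were evaluated, 11 were at least 2-fold higher in uterus and 2 in liver, and the median was 1.20. *Oxtr*, the oxytocin receptor, had a level of 0.72 in uterus and −3.63 in liver, a difference of 20.5-fold. In the BHPF pair it was −0.55 and −3.11, which is a log2 difference of 2.56 beside 4.36. *Ptgfr*, the receptor of prostaglandin F2α, was at least 11.2-fold higher in uterus, with a level of −2.13. *Prkg1*, the kinase through which cyclic GMP relaxes muscle, was 13.6-fold higher, and *Ednra*, an endothelin receptor, 5.34-fold. *Gja1*, the gap junction protein that couples myometrial cells, was 5.45-fold higher at 0.38 against −2.07. The coactivator *Myocd* stood at −3.65 in uterus and was at least 3.92-fold higher there. Its partner *Srf* was 2.71-fold higher. *Adra1b*, the adrenergic receptor of hepatocytes, was 5.43-fold higher in liver, although its 2 probes gave −3.89 and −0.99. Against the ovary, 6 of 20 genes were at least 2-fold higher in uterus and 4 in ovary, with a median of 0.22. For all genes of that comparison the shares were 13.6% and 11.0%. *Myocd* and *Gja1* were higher in ovary, at −2.23 and 2.45, and *Oxtr* was near equal there, at 0.50.

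**Figure D2:**
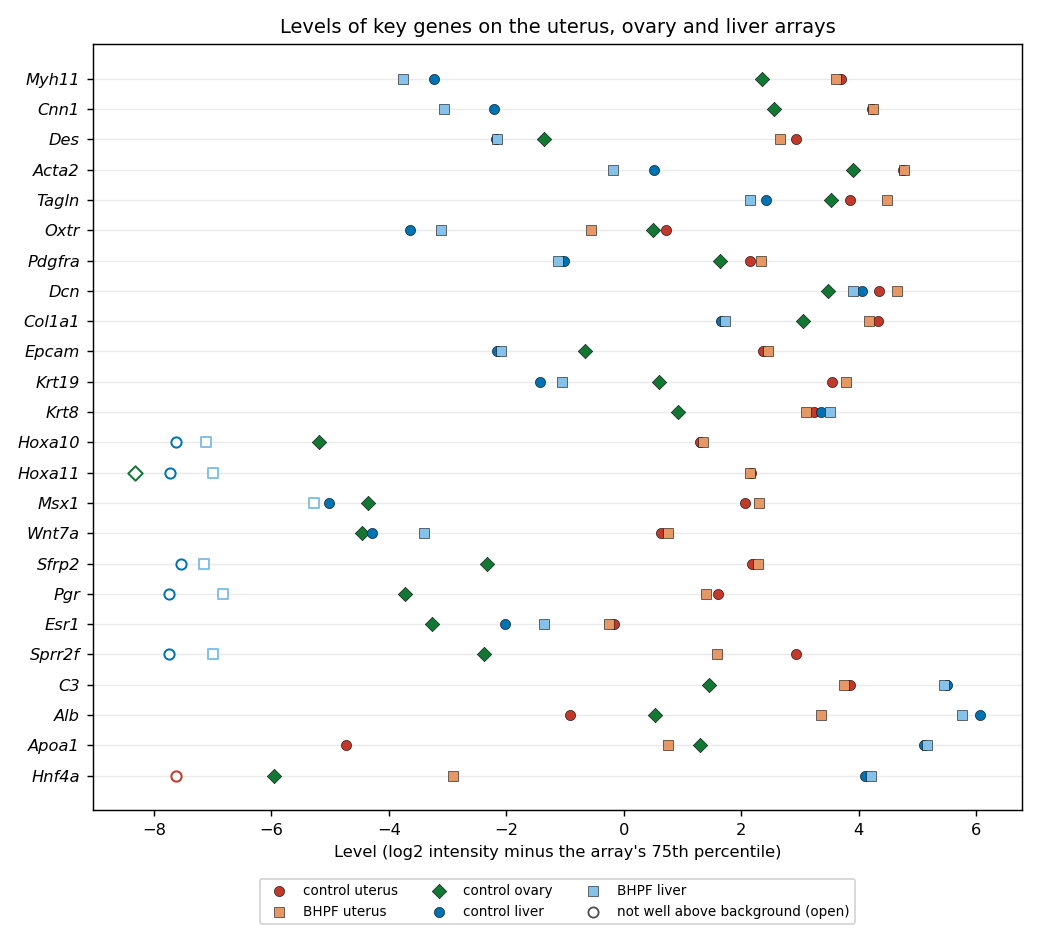
Levels of key genes (rows) on the control and BHPF arrays of uterus and liver and on the control ovary array, as log2 intensity minus the 75th percentile of the array (x axis), 1 point an array, with points not well above background drawn open. *Myh11* stands at 3.70 and −3.23 on the control arrays, and *Alb* shows the gap between the uterus arrays, at −0.92 in control and 3.36 with BHPF.

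Stromal fibroblast genes were also higher in uterus as a group. Of 29 evaluated genes, 23 were at least 2-fold higher there and 2 in liver, and the median was 2.71, with 2.52 in the BHPF pair. Much of this was shared with the ovary, against which 12 of the 29 were at least 2-fold higher in uterus and none in ovary. The other 17 lay within 2-fold of it, and the median was 0.67. Over all genes of the ovary comparison the shares were 13.6% and 11.0%. *Mfap5*, a microfibril protein of elastic fibres, had a level of 2.62 in uterus and −4.83 in liver, or 176-fold. It was among the 10 genes with the largest ratio of all those measured on both arrays, but stood at 1.95 in ovary. *Twist2*, a mesenchymal transcription factor, stood at 1.75 and −4.25, or 63.9-fold. *Prrx1*, a mesenchymal homeobox factor, was at least 53.5-fold higher, and *Fbln1*, a matrix glycoprotein, 58.4-fold. *Pdgfra*, the growth factor receptor that marks fibroblasts of many organs, was 8.97-fold higher, with levels of 2.15 and −1.01. *Thy1*, a fibroblast surface protein, was 6.54-fold higher, the proteoglycan *Lum* 2.55-fold and the pericyte receptor *Pdgfrb* 2.31-fold.

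Among the 4 genes of the list within 2-fold, the intermediate filament *Vim* stood at 4.08 and 3.23, a log2 difference of 0.85, and the proteoglycan *Dcn* at 4.34 and 4.05, a difference of 0.29 that changed sign with the scaling. The 2 genes of the list on the liver side were *Igf1*, the growth factor that the liver releases into blood, at 1.48 in uterus and 3.48 in liver, and the chemokine *Cxcl12*, at 1.54 and 2.61.

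Extracellular matrix genes followed the stroma with smaller differences. Of 35 evaluated genes, 26 were at least 2-fold higher in uterus and 2 in liver, with a median of 1.91. Against the ovary 15 of the 35 were at least 2-fold higher in uterus, 3 in ovary and 17 within 2-fold. The median there was 0.72, and the shares of all genes were 13.6% and 11.0%. *Col1a1*, an alpha chain of type I collagen, had levels of 4.34 and 1.66, or 6.40-fold. *Col1a2*, the other chain of that collagen, differed by 2.43-fold, and *Col3a1*, of type III collagen, by 2.11-fold at 5.05 and 3.97. These collagen genes lay above the 75th percentile on both arrays. *Col6a2*, a chain of the beaded microfibril collagen, differed far more, at 2.43 and −3.24, or 50.8-fold. *Lox*, the enzyme that cross-links collagen and elastin, was 15.6-fold higher in uterus, and *Postn*, a matricellular protein, 3.70-fold. *Eln*, the core of elastic fibres, was 3.15-fold higher, but its log2 difference of 1.66 was 0.55 in the BHPF pair. The basement membrane chains *Col4a1* and *Col4a2* differed by 0.39 and 0.38, and the collagen-binding *Sparc* by −0.01, and the signs of these 3 changed with the scaling. On the liver side lay plasma matrix proteins that hepatocytes make, *Vtn* at −0.03 in uterus and 5.06 in liver and *Fn1* at 3.55 and 4.59.

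**Figure D3:**
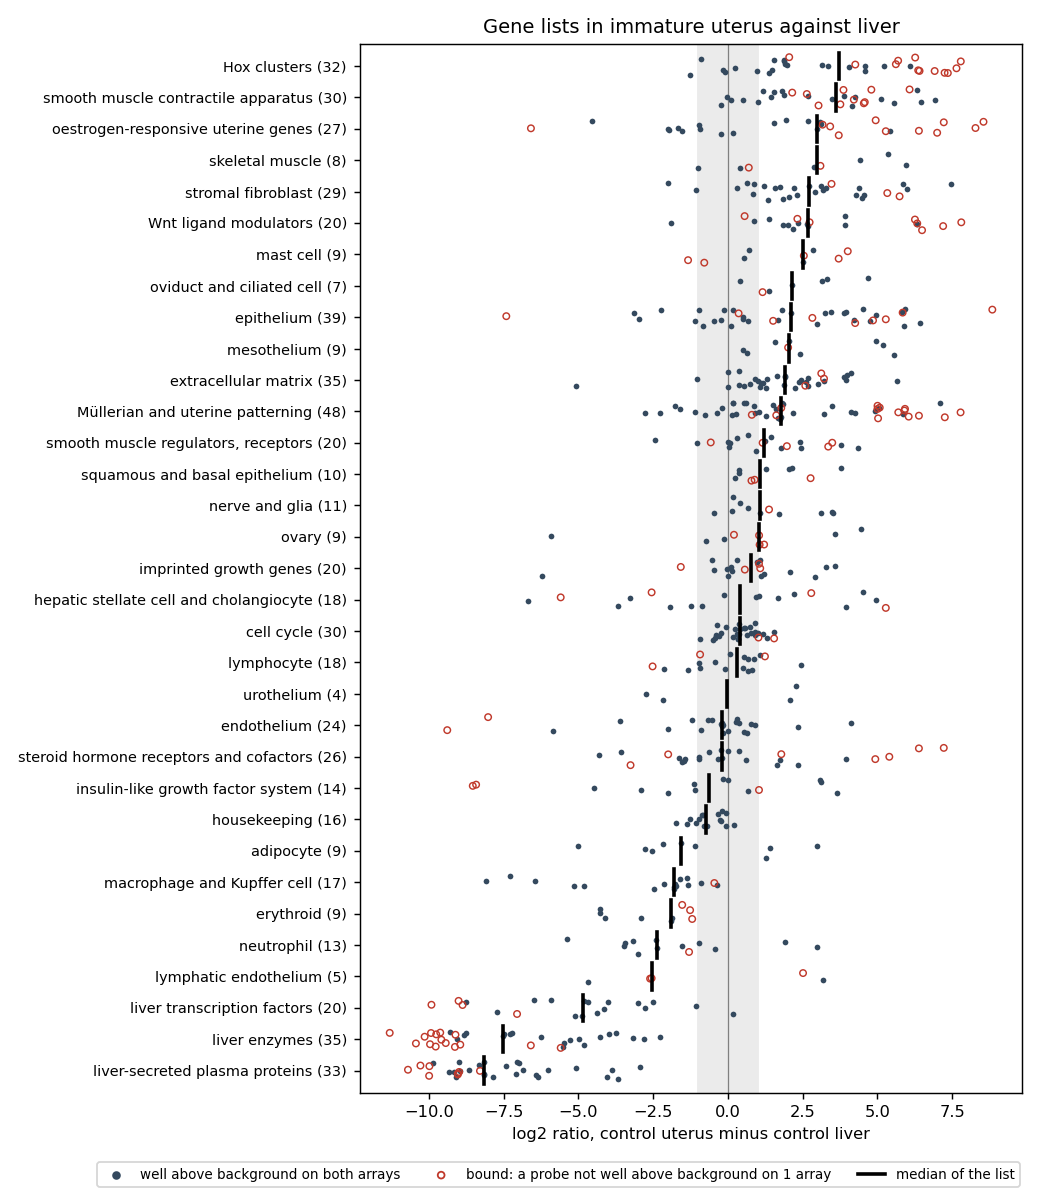
Log2 ratio of uterus to liver (x axis) for the evaluated genes of each list on the control arrays, with 1 point a gene, open where it is a bound, the list median as a bar, the number of genes in brackets and the range within 2-fold shaded. Smooth muscle and Hox genes have medians of 3.62 and 3.70, liver-secreted proteins one of −8.17, and cell cycle genes one of 0.39.

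Epithelial genes leaned to the uterus, with some members on the liver side. Of 39 evaluated genes, 23 were at least 2-fold higher in uterus and 5 in liver, with a median of 2.11. Against the ovary 36 of the 39 were at least 2-fold higher in uterus and 1 in ovary, with a median of 2.95, beside 13.6% and 11.0% of all genes in that comparison. *Cldn10*, a tight junction protein, had a level of 3.22 in uterus and was not well above background in liver, at −6.04, which gives at least 460-fold. *St14*, a membrane protease of epithelia, stood at 1.27 and −5.14, or 85.1-fold. *Rab25*, a vesicle GTPase of polarised epithelia, was 59.8-fold higher, the transcription factor *Klf5* 56.6-fold and the apical mucin *Muc1* at least 38.9-fold. The duct and lining keratins *Krt19* and *Krt7* were 31.3-fold and 15.4-fold higher, and the adhesion molecule *Epcam* 23.1-fold, at 2.37 against −2.15. In liver these genes are known from bile ducts, a small part of the tissue.

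The keratins and cadherin of simple epithelia, which hepatocytes also express, were near equal. *Krt8* stood at 3.23 and 3.35, *Krt18* at 3.67 and 4.12, and *Cdh1* at 1.39 and 1.64, and the signs of these 3 differences changed with the scaling. The 5 genes higher in liver were the brush border cadherin *Cdhr5*, at least 170-fold, the splicing factor *Esrp2*, 8.91-fold, the copper protein ceruloplasmin *Cp*, 7.89-fold, the tricellular junction protein *Lsr*, 4.75-fold, and the polarity protein *Crb3*, 2.13-fold. *Ltf*, the secreted iron-binding protein lactotransferrin, was bright in the uterus of both groups, at 3.46 and 3.50. Its liver level was 0.47 in control and −3.71 with BHPF, so the log2 ratio of uterus to liver was 2.99 in the control pair, or 7.94-fold, and 7.21 in the BHPF pair. The neutrophil genes *S100a8* and *S100a9*, whose protein is found in the same granulocytes, also had higher levels on the control liver array, 3.26 and 3.96, than on the BHPF liver array, 0.54 and 1.69. Their part in the *Ltf* value was not tested.

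Hox genes were higher in uterus as a group. The 39 genes lie in 4 clusters and encode the homeodomain proteins that set position along the body axis. Of these, 32 were evaluated, 26 were at least 2-fold higher in uterus and 1 in liver, and the median was 3.70, with 3.48 in the BHPF pair. On the liver array 19 of the 39 were not well above background, and 7 were so on both arrays. *Hoxa11*, needed for the uterine stroma and glands, had a level of 2.17 in uterus and −7.73 in liver, at least 221-fold. It was not well above background in ovary either, at −8.33. *Hoxa10*, which patterns the uterus proper, stood at 1.29 and −7.62, at least 121-fold, and at −5.19 in ovary. *Hoxa9*, the gene of the future oviduct, stood at −0.00 and −7.35, at least 49.1-fold. The antisense transcript *Hoxa11os*, which overlaps *Hoxa11*, had levels of 2.61 and −4.37. Its ratio was among the 10 largest over genes measured on both arrays, and the sources used here do not say whether labelling kept the strand.

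By position in the cluster, medians were taken over the 4 clusters together and within each, with bounds at their value. Paralogue groups 1 to 4 had a median of 3.15 over 9 evaluated genes, groups 5 to 8 one of 4.26 over 11, and groups 9 to 11 one of 5.66 over 10. Within a cluster each group held 1 to 4 evaluated genes. The pooled order was that of cluster A alone, with medians of 0.98, 1.91 and 6.92. In cluster D the medians were 6.95, 6.37 and 6.09, in cluster B 3.15, 5.82 and 3.35, and in cluster C 4.60, 0.24 and 1.86, so the clusters had no common order. All 10 genes of groups 9 to 11 were at least 2-fold higher in uterus. In groups 12 and 13, known for the cervix, vagina and digits, 2 of 6 genes were evaluated and neither differed by 2-fold, with *Hoxa13* at −0.08 and *Hoxd12* at −0.88 on the log2 scale of uterus minus liver. By cluster, the median was 6.26 for cluster D, 3.70 for B, 1.86 for C and 1.73 for A. *Hoxd4*, *Hoxb8* and *Hoxd9* were at least 200-fold, 164-fold and 152-fold higher in uterus, and *Hoxd10* 67.9-fold. *Hoxd4* and *Hoxd9* stood at 2.02 and 1.63 in uterus and at 1.03 and 0.33 in ovary. In ovary *Hoxd10* stood at −0.73 and *Hoxb8* at −4.35. Of 32 Hox genes evaluated against the ovary, 18 were at least 2-fold higher in uterus and 5 in ovary, with a median of 1.22. For all genes of that comparison the shares were 13.6% and 11.0%. In cluster C the uterine levels lay below the 75th percentile, as for *Hoxc9* at −2.56 and *Hoxc10* at −2.37, which were 2.60-fold and 3.63-fold above liver. The levels of *Hoxc9* and *Hoxc10* in ovary were −0.37 and −2.30.

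**Figure D4:**
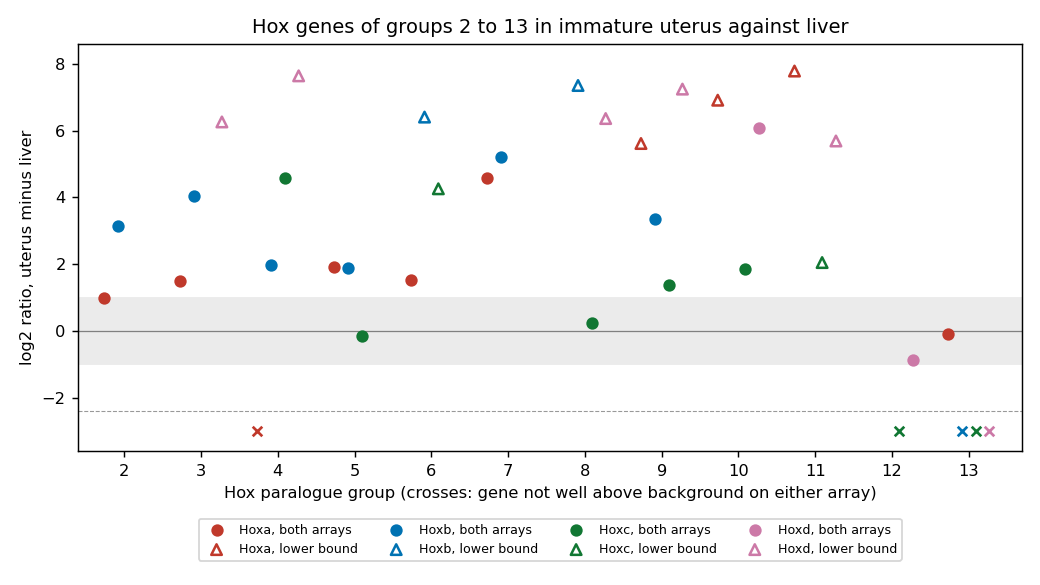
Log2 ratio of control uterus to control liver (y axis) for the Hox genes of paralogue groups 2 to 13 (x axis, by group) and cluster (colour), with filled circles for genes well above background on both arrays, open triangles for lower bounds, crosses for genes not well above background on either, and the range within 2-fold shaded. The 10 genes of groups 9 to 11 lie above the shaded range, and the 2 evaluated genes of groups 12 and 13 lie inside it.

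Patterning genes of the Müllerian duct and uterus were mostly higher in uterus. Of 49 listed, 48 were evaluated, 31 were at least 2-fold higher in uterus and 5 in liver, and the median was 1.77. Against the ovary all 49 were evaluated, 28 were at least 2-fold higher in uterus, 4 in ovary and 17 within 2-fold. The median there was 1.13, and the shares of all genes were 13.6% and 11.0%. The transcription factors came first. *Emx2*, without which the urogenital tract does not form, stood at 2.21 and −5.57, at least 220-fold. The homeobox factor *Msx1* stood at 2.07 and −5.02, or 136-fold, and its relative *Msx2* at 0.43 in uterus, at least 66.1-fold. *Msx1* was faint in ovary at −4.35, and *Msx2* was not well above background there, but *Emx2* stood at 0.66 in ovary. *Dlx5*, another homeobox factor of the uterine lining, was at least 153-fold higher, at 1.63. *Osr1*, of the intermediate mesoderm, was at least 83.8-fold higher, and *Pax8*, of the Müllerian epithelium, at least 60.7-fold, at 0.30. *Gata2*, a factor of progesterone action, stood at 1.61 and −3.45, or 33.4-fold, and *Sox17*, of epithelium and endothelium, was 17.2-fold higher.

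Signals and their effectors on the same list lay on both sides. *Wnt7a*, made by the uterine epithelium, stood at 0.64 and −4.28, or 30.3-fold. *Wnt5a*, made by the stroma, stood at 2.06 and −1.17, or 9.36-fold, and *Wnt4*, required for the duct to form, at −0.69 and −1.97, or 2.43-fold. *Wnt9b*, known to act before *Wnt4* in kidney development, was 4.77-fold higher in liver, at −5.05 and −2.79, and *Wnt11* lay within 2-fold at −0.77. *Fgf10*, a mesenchymal growth factor, was at least 32-fold higher in uterus. In the hedgehog pathway the transcription factors *Gli1*, *Gli2* and *Gli3* were 58.3-fold, at least 59.8-fold and 19.2-fold higher. Their levels were 2.26, 0.28 and 1.08 in uterus and 1.45, −0.75 and −0.04 in ovary. The epithelial ligand *Ihh*, at −1.96 and −2.49, and the receptor *Ptch1*, at −3.34 and −2.99, lay within 2-fold. *Hand2*, a stromal factor downstream of progesterone, was 3.21-fold higher, at 0.62 and −1.07, and was not well above background in ovary. *Amhr2*, the receptor that makes the duct regress in males, was 3.38-fold higher in uterus than in liver and stood at −1.51 beside 2.66 in ovary. The stromal receptor *Nr2f2* lay within 2-fold, with a difference of 0.90. On the liver side lay *Foxa2*, a factor of both hepatocytes and uterine glands, at −1.54 and 1.23, the growth factor *Bmp2* at −0.05 and 1.71, and *Pax2* at −3.85 and −2.76, whose 2 probes gave −2.42 and 0.24.

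Modulators of Wnt signalling stood out in the same direction. Of 20 evaluated genes, 17 were at least 2-fold higher in uterus and 1 in liver, and the median was 2.67. *Sfrp2*, a secreted inhibitor, stood at 2.19 and −7.54, at least 224-fold, and *Sfrp4* at 1.67 and −4.65, or 79.9-fold. *Sfrp1* stood at −2.62 in uterus and was 6.30-fold higher than in liver. The receptor *Fzd10* was at least 147-fold higher, the inhibitor *Dkk2* at least 90.1-fold and the *Wnt5a* receptor *Ror2* at least 80.6-fold. The secreted agonists *Rspo1* and *Rspo3* were 15.1-fold and 4.57-fold higher. *Axin2*, a general target of the pathway, was 3.99-fold higher, from 1 of 2 probes. *Nkd2*, an inhibitor inside the cell, averaged 3.60-fold, but its 2 probes gave 5.32 and −1.63 and its direction is unsettled. The 1 gene on the liver side was *Notum*, a secreted enzyme that removes the lipid of Wnt proteins, at −0.19 and 1.71.

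Steroid hormone receptors and cofactors did not shift as a group. Of 26 genes, 9 were at least 2-fold higher in uterus and 8 in liver, and the median of −0.21 became 0.11 with the 75th percentile over the probes detected by both arrays and 0.01 with quantile normalisation. Among those higher in uterus was *Pgr*, the progesterone receptor, at 1.60 and −7.75, at least 149-fold, and at −3.73 in ovary. *Greb1*, a cofactor of the oestrogen receptor, was at least 83.8-fold higher than in liver, and stood at 1.66 in uterus and 2.56 in ovary. *Esr1*, the main oestrogen receptor of the uterus, was at least 3.45-fold higher, and its 3 probes gave log2 differences from 0.98 to 2.72. *Esr1* was well above background in liver on 2 of 3 probes, at −2.03 on average. *Gper1*, a membrane receptor for oestrogen, was at least 42.2-fold higher and the vitamin D receptor *Vdr* 15.5-fold.

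The probe of *Esr2*, the second oestrogen receptor, which is known from granulosa cells, gave 3.17 in uterus, 3.51 in liver and 3.45 in ovary, and so did not separate the tissues. On the liver side lay the prolactin receptor *Prlr*, at −2.46 and 1.84, the retinoid receptor *Rxra*, at −4.23 and −0.66, and the glucocorticoid receptor *Nr3c1*, at −1.13 and 0.40.

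Genes known to respond to oestrogen in the uterus leaned to the uterine side in the control pair. Of 27 evaluated genes, 17 were at least 2-fold higher in uterus and 6 in liver, and the median was 2.99. In the BHPF pair 14 were higher in uterus and the median was 1.14. When detection on both arrays was required, so that 7 genes not well above background in liver dropped out, the median was −0.028. *Sprr2f*, a small proline-rich protein of the epithelium, stood at 2.93 and −7.75, at least 374-fold, and at 1.60 in the uterus of mice given BHPF. *Padi1*, which converts arginine to citrulline, stood at 2.66 in control and 2.50 with BHPF, and was at least 311-fold higher than in liver. Its relative *Padi2* was 43.3-fold higher. *Sprr2g* was at least 128-fold higher, at 1.38 in control and 0.29 with BHPF. *Sprr2b* stood at −0.68 in the control uterus and −4.40 in the BHPF uterus, which is at least 30.8-fold above liver in the control pair and a log2 bound of 0.51 in the other. *Sprr2d* behaved in the same way, at −2.45 and −4.51. The mean of *Sprr2a2* was at least 10.7-fold higher, but its probes ranged from −0.38 to 7.22. The genes of this family are close copies of each other, so a probe may read more than 1 of them. The 6 genes higher in liver included the complement component *C3*, at 3.85 and 5.50, the secreted chaperone *Clu*, at 2.91 and 4.90, and the water channel *Aqp8*, at least 96.2-fold higher in liver. *Lcn2*, an iron carrier of the innate response, lay within 2-fold, at 4.24 and 5.19.

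Genes of the insulin-like growth factor system lay on both sides. Of 14 genes, 4 were at least 2-fold higher in uterus and 7 in liver, and the median of −0.63 became 0.05 with quantile normalisation. Over all genes the shares were 22.6% and 20.0%. *Igfals*, which holds the hormone in the blood, was at least 371-fold higher in liver, at 2.73 there, and the binding protein *Igfbp1* at least 343-fold. *Igfbp2* stood at −0.08 and 4.39, or 22.2-fold, and the growth hormone receptor *Ghr* at 0.70 and 3.61, or 7.56-fold. The receptor *Igf1r* was higher in uterus, at 2.17 and −0.96, or 8.73-fold. The binding proteins went both ways, with *Igfbp5* 8.54-fold and *Igfbp6* 12.6-fold higher in uterus and *Igfbp4* 2.12-fold higher in liver. *Igfbp3*, the main binding protein in blood, at 0.68, *Igfbp7* at −0.17 and the clearance receptor *Igf2r* at 0.02 on the log2 scale of uterus minus liver lay within 2-fold, and the signs of *Igfbp7* and *Igf2r* changed with the scaling. *Igf2*, the fetal growth factor, was near background, at −4.58 in uterus, and at least 2.06-fold above liver.

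Imprinted growth genes, which are expressed from 1 parental copy and fall in level after birth, showed 9 of 20 higher in uterus and 2 in liver, with a median of 0.77. *Dlk1*, a fetal membrane protein, was 12-fold higher in uterus from 1 of 2 probes, *Ndn* 9.76-fold, the noncoding *Meg3* 4.27-fold, the cell cycle inhibitor *Cdkn1c* 2.16-fold and the transcription factor *Plagl1* 2.09-fold. *Peg3* lay within 2-fold, with a bound of 0.57. Most cell cycle genes lay within 2-fold in the control pair. Of 30, 5 were at least 2-fold higher in uterus and none in liver, against 12 and 1 in the BHPF pair, where the median was 0.67. Over all genes the shares were 22.6% and 20.0% in the control pair and 22.3% and 21.4% in the BHPF pair. The control median of 0.39 became −0.19 when the 50th percentile was subtracted. *Mki67*, a marker of dividing cells, stood at 1.92 and 1.59, *Top2a*, which untangles replicated DNA, at −0.08 and −1.27, and *Cdk1*, the mitotic kinase, at −1.44 and −1.63. Against the ovary, 1 of the 30 was at least 2-fold higher in uterus and 19 in ovary, with a median of −1.11, beside 13.6% and 11.0% of all genes in that comparison.

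Other cell types of the uterine wall and its surroundings were read from their own lists. Mesothelium, the outer covering, gave 7 of 9 genes higher in uterus and none in liver, with a median of 2.03. Among the 7 was *Krt19*, which is also on the epithelial list. *Wt1*, a factor of mesothelium and also of uterine stroma, stood at 2.60 and −2.97, or 47.5-fold, and *Aldh1a2*, which makes retinoic acid, at 2.52 and −2.67, or 36.6-fold. *Upk3b* was 4.09-fold higher, while *Msln* lay within 2-fold at 0.64. Nerve and glia gave 6 of 11 higher in uterus and none in liver, with the glial *S100b* 8.66-fold higher. Mast cell genes gave 5 of 9 higher in uterus and 1 in liver, with the proteases *Cma1* at least 16.1-fold, *Mcpt4* at least 13-fold and *Cpa3* at least 5.82-fold higher. The mast cell genes *Tpsb2* and *Kit*, the receptor that mast cells share with other cells, lay within 2-fold, at 0.71 and 0.54. The mast cell list summed to 4.55 times the 75th percentile of intensity in uterus and 1.03 in liver, and 6 and 7 of its 13 genes were not well above background.

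Markers of neighbouring tissues were also on the uterus array. Skeletal muscle genes summed to 14.8 times the 75th percentile in the control uterus, 11.4 in the BHPF uterus, 2.94 in the control ovary and 0.673 in the control liver. Of the 12 genes listed, 4 were not well above background in the control uterus. Of 8 evaluated, 5 were at least 2-fold higher in uterus and 1 in liver, with a median of 2.99. *Acta1*, skeletal actin, stood at 2.44 and −3.51, and *Tnni2*, a troponin of fast muscle, at 2.73 and −2.62, but the defining *Ckm*, muscle creatine kinase, was near background at −4.92. Oviduct and ciliated cell genes summed to 8.19 in the control uterus, 7.97 in the BHPF uterus, 4.73 in the control ovary and 2.47 in the control liver. Against the ovary, 2 of 11 were at least 2-fold higher on each side and 7 within 2-fold, with a median of −0.13. The shares of all genes there were 13.6% and 11.0%. *Foxj1*, the switch for motile cilia, was 8.76-fold higher than in liver, and *Ovgp1*, the oviductal glycoprotein, 26-fold, at 1.70. Of the 12 genes of that list, 5 were not well above background in uterus. Ovarian genes summed to 3.23 in the control uterus and 75.1 in the control ovary. *Inha*, an inhibin subunit, stood at −0.10 in uterus, −4.56 in liver and 4.35 in ovary, while the granulosa cell genes *Fshr* and *Amh* were not well above background in uterus or liver. Squamous and basal epithelial genes gave 5 of 10 higher in uterus and none in liver, with the mucosal keratin *Krt13* at least 6.80-fold higher and the basal keratin *Krt14* within 2-fold at 0.25, a sign that changed with the scaling. The part of attached tissue in the muscle and epithelial results was not tested.

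All 9 evaluated adipocyte genes differed by at least 2-fold, 3 toward the uterus and 6 toward the liver, with a median of −1.56. The list summed to 7.77 in the control uterus and 4.52 in the BHPF uterus, beside 11.6 in the control ovary. It summed to 50.8 in the control liver and 49.5 in the BHPF liver. *Adipoq*, the fat cell hormone, stood at −1.21 in the control uterus, −4.52 in the BHPF uterus, and 0.35 and 0.21 in the livers, and *Cfd*, a protease of fat cells, at 0.22 in the control uterus and −2.49 in the BHPF uterus. Of 24 endothelial genes, 2 were higher in uterus and 6 in liver, and the median of −0.19 became 0.14 and 0.07 under other scalings. The shares over all genes were 22.6% and 20.0%. The general markers *Pecam1* at 0.90, *Vwf* at −0.00 and *Cdh5* at −0.20 on the log2 scale of uterus minus liver lay within 2-fold, and the signs of *Vwf* and *Cdh5* changed with the scaling. Genes known from liver sinusoids were higher in liver, *Clec4g* by at least 670-fold, *Oit3* by at least 260-fold and *Stab2* by 58.2-fold. Of 5 lymphatic genes 2 were higher in uterus and 3 in liver, among them *Prox1*, a factor of both lymphatic vessels and hepatocytes, at −4.33 and 0.34. The lymphatic median of −2.55 turned to 3.03 when probes had to be well above background on both arrays. Of 4 urothelial genes 2 were higher on each side.

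Macrophage, erythroid and neutrophil genes lay mostly on the liver side. Of 17 macrophage and Kupffer cell genes, 14 were at least 2-fold higher in liver and none in uterus, with a median of −1.80. Genes of the Kupffer cell differed most, with *Vsig4* at −5.29 and 2.80, or 272-fold, *Clec4f* at −3.78 and 3.51, or 156-fold, *Cd5l* 87.2-fold and *Timd4* 28-fold higher in liver. The general macrophage genes *Adgre1*, at 1.19 and 3.00, and *Csf1r*, at 0.84 and 2.22, differed by 3.50-fold and 2.60-fold. All 9 evaluated erythroid genes were higher in liver, with the haem enzyme *Alas2* at −2.66 and 1.61 and the globin genes *Hbb-bs* at 0.61 and 3.53 and *Hba-a1* at 3.52 and 5.40. Globin genes have near-identical copies, so their probes may read more than 1 gene. Of 13 neutrophil genes 9 were higher in liver and 2 in uterus. *S100a8* stood at 0.86 and 3.26 and *S100a9* at 1.60 and 3.96, but the liver value depended on which liver pool was read, as given with *Ltf*. Summed over the list, neutrophil genes gave 95.4 in the control liver and 41.2 in the BHPF liver. Lymphocyte genes gave 3 on each side of 18, beside 22.6% and 20.0% of all genes, with the T cell gene *Cd3e* at −0.94.

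Liver genes gave the largest ratios of the comparison. Among plasma proteins secreted by the liver, all 33 genes were at least 2-fold higher in liver, with a median log2 difference of −8.17. *Alb*, serum albumin, stood at −0.92 in uterus and 6.07 in liver, or 127-fold. *Apoa1*, the main protein of high-density lipoprotein, stood at −4.73 and 5.12, or 922-fold, and *Ttr*, the thyroxine carrier, at −1.33 and 5.03, or 82.1-fold. *Ahsg*, a mineral-binding protein, was 64.6-fold higher in liver, and the fibrinogen chains *Fgb* and *Fga* 288-fold and at least 1247-fold. *Rbp4*, the retinol carrier, gave the smallest difference of the list, at 1.41 and 4.36, or 7.74-fold.

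Enzymes and transcription factors of hepatocytes followed. All 35 listed enzymes of nitrogen, glucose and bile acid metabolism were at least 2-fold higher in liver, with a median of −7.52, and 15 of them were not well above background in uterus. *Hpd*, of tyrosine breakdown, was at least 2542-fold higher, the urea cycle genes *Cps1* and *Otc* at least 1131-fold and 788-fold, and *Cyp7a1*, the rate-limiting enzyme of bile acid synthesis, at least 553-fold. *Adh1*, an alcohol and retinol dehydrogenase, differed least, at 2.58 and 4.84, or 4.78-fold. Of 20 liver transcription factors 19 were higher in liver and none in uterus, with a median of −4.85. *Hnf4a* was at least 966-fold higher, *Foxa3* at least 515-fold and *Cebpa* 16.2-fold. Genes of stellate cells and bile ducts, 18 in all, gave 8 higher in uterus and 7 in liver, with the stellate cell factor *Lhx2* at least 48.3-fold higher in liver, and their median of 0.40 became −0.18 when the 50th percentile was subtracted. Some of the genes higher in uterus, such as *Krt19*, *Muc1* and *Hand2*, also belong to the epithelial or patterning lists above. The transcription factor within 2-fold was *Tbx3*, a T-box factor, at 2.67 and 2.51, a difference whose sign changed with the scaling.

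The uterine levels of these genes depended on the array. Summed over the 33 secreted proteins, the level was 15.4 times the 75th percentile in the control uterus, 89.5 in the BHPF uterus, 24.9 in the control ovary, and 1025 and 986 in the livers. In the BHPF uterus *Alb* stood at 3.36 and *Apoa1* at 0.76. The median difference of the list was −3.99 in the BHPF pair, beside −8.17, and that of the enzymes −5.29, beside −7.52. For the smooth muscle list the corresponding sums were 205 and 210 in the uterus arrays and 54.8 and 49.3 in the livers.

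Over all genes measured on both arrays, listed or not, the 10 largest ratios toward the uterus were led by *Tspan1*, a tetraspanin of secretory epithelia, at 2.85 and −5.23, followed by *Mfap5*, *Tmem45b*, the carbonyl reductase *Cbr2*, *Msx1*, *Hoxa11os*, *Myh11*, the growth factor *Ptn*, *Sh3bgr* and the transcriptional cofactor *Eya2*, whose log2 ratios ran down to 6.85. Among genes well above background in uterus alone, the 10 largest bounds were those of *Pcp4*, a calmodulin-binding protein, at 4.05 in uterus, *Fxyd4*, a regulator of the sodium pump, *Cldn10*, *Sprr2f*, *BC048679*, *Padi1*, *Fads2b*, the chloride channel regulator *Clca1*, the enkephalin precursor *Penk* and *Dio2*, which activates thyroid hormone. Their log2 bounds ran from 9.67 to 7.95. The 10 largest ratios toward the liver, again over genes measured on both arrays, were those of the plasma proteins *Hrg*, *Apoa1*, *Apom* and *Hpx*, the enzymes *Ces3a*, *Cyp2c68*, *Cyp2d9* and *Ugt2a3*, the amino acid transporter *Slc38a3* and 1 gene not reported here, from −10.03 to −9.28.

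Housekeeping genes lay slightly toward the liver, with a median of −0.75 over 16 genes, of which 4 were at least 2-fold higher in liver and none in uterus. With quantile normalisation the median was −0.06. *Gapdh*, the control gene of the study, stood at 3.19 and 4.15, and *Actb* at 4.57 and 4.84, a difference whose sign changed with the scaling. Over all lists, 625 genes were evaluated, of which 274 were at least 2-fold higher in uterus, 188 in liver and 163 in neither. Of the 625, 42 lay within 0.1 of the 2-fold line on the log2 scale. Near that line, *Col3a1* at 1.08 and *Crb3* at −1.09 were counted, and *Hoxa2* at 0.98 and *Gapdh* at −0.96 were not. Symbols were matched for 52.1% of probes higher in uterus, 67.6% of those higher in liver and 54.0% of all evaluated probes, so fewer of the probes higher in uterus could be named.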

How the data were processed

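RNA pooled from 3 mice per tissue was labelled with Cy3 and hybridised to 1 Agilent one-colour array a pool. The authors extracted the scans in Agilent Feature Extraction (version 9.1 per the submitters' processing notes, 11.5.1.1 per the file headers) and deposited the intensity of each spot, background-subtracted, on a linear scale and not normalised between arrays. A table of log2 values was deposited as well, each the log2 intensity minus a constant per array, whose 2 uterus columns disagree with the scanner files over which array is control and which BHPF, as a check of every column against the scanner values showed. The files do not settle which is right. The scanner files were used, and the table served as an alternative.

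Control spots and outlier spots were left out and spots of 1 probe were averaged as log2 values. The 75th percentile over 55681 probes was subtracted, since the methods name a percentile shift. A probe was well above background when at least 50% of its spots were so called. No spot was saturated. On the control arrays 68.9% of probes in uterus and 63.9% in liver were well above background, at a 75th percentile of intensity of 5335 and 3443, and precision is limited by the number of arrays. Symbols came from probe accessions matched to RefSeq genes of GRCm38.p6, which named 26762 of 55681 probes (48.1%). The arrays were designed on mm9, so no coordinates are given. The CArG box was searched on both strands of RefSeq promoters. Some genes that the rule for names selects are not reported here.

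The members and the 33 lists, of 686 genes, were chosen with earlier results of these data known. Of each list the key genes were named, and where few were evaluated the 3 largest and 3 smallest ratios, with the 10 largest and 10 smallest ratios over all genes on both arrays and the 10 largest bounds in uterus. Further genes of the lists were chosen for the text after their values were seen. Alternatives covered background correction (limma normexp, offset 50), scaling, the table, the filter and bound for dim probes, the probe of a gene, a 4-fold threshold and the BHPF arrays. The scanner files held no mean signal, so normexp used the median signal. The steps were tested on simulated data. Python 3.11.15 with numpy 2.4.6, pandas 2.3.3 and matplotlib 3.10.9, and R 4.3.3 with limma 3.58.1, were used.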

Additional observations from a re-analysis of the deposited data

Results flagged for a closer look

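The control pair and the BHPF pair pointed in opposite directions for 2 named genes, differences that were not tested. *Zp3*, a protein of the egg coat, was a bound of 1.06 toward the uterus in the control pair and −1.10 toward the liver in the BHPF pair. Its levels were −4.56 and −7.55 in the control uterus and liver, and −6.35 and −3.97 with BHPF, all close to background, and 2.69 in the control ovary. *Sprr1a*, a cornified envelope protein, gave 2.15 in the control pair and −0.75 in the BHPF pair, with levels of 0.50 and −1.64 in control and −1.28 and −0.53 with BHPF.

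Genes of liver-secreted proteins were higher on the BHPF uterus array than on the control uterus array by a median of 3.78 on the log2 scale, although that array is used here only as a check. The smooth muscle list summed to 205 and 210 times the 75th percentile on these 2 arrays.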

How the results depend on the processing

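No paired analysis was possible because each group had 1 array, and no array could be left out. Of the comparisons made for the main summary results under 15 alternative settings, 155 stayed within 1.5 times the main count or on its side, 12 were smaller and 3 larger. This tally does not follow every list median, nor the values of single named genes, which shifted with the scaling. The medians of the lymphatic, oestrogen-responsive, steroid receptor, insulin-like growth factor, cell cycle, endothelial and stellate cell lists changed sign under some settings, as given with those lists. Subtracting the 50th percentile moved the median of all genes by −0.57, and the 75th percentile over probes detected by both arrays moved it by 0.32. Genes higher in uterus numbered 1943 at 4-fold, and 9256 probes took the place of 3761 genes. Genes higher in liver numbered 6001 with the 50th percentile, 1472 at 4-fold and 6392 as probes. At 4-fold, 16 matrix genes and 20 Müllerian genes were higher in uterus. With the authors' table, as headed or with its uterus columns exchanged, and with probes well above background on both arrays, the counts were 14 for Hox genes and 11 for Wnt modulators. The last of these settings also gave 19 Müllerian genes and 20 liver enzymes, because it tests fewer genes, and an oestrogen-responsive median of −0.028. The lymphatic median of −2.55 was 3.18 with the table as headed, 3.04 with its columns exchanged and 3.03 with probes on both arrays, which leaves out 2 bounds. *S100a8* gave 0.32 with the control uterus against the BHPF liver. *Zp3* gave −1.10 in the BHPF pair and −0.59 with the control uterus against the BHPF liver, and *Sprr1a* −0.75 in the BHPF pair. The brightest probe gave −1.63 for *Nkd2* and −0.38 for *Sprr2a2*, which was also −0.38 with probes on both arrays, −0.38 with the table exchanged and −0.16 with it as headed. The cause was not tested where none is named. Ratios of genes near background on either array are bounds or rest on faint signal.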
